A study of Mus musculus with 8 samples.

Results

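The genes described are 40 listed members of the amino acid response, of serine synthesis and one-carbon metabolism, and of tRNA charging. They were listed by name and not by a threshold on a value, but with earlier results of these data known. Each was read from the probe set of its symbol with the highest mean over the 8 arrays. A probe set of 1 symbol was found for 39 of the 40, out of 18193 genes on the array. Pycr1, a proline synthesis enzyme, had none listed and was dropped. Of the 39 genes, 38 passed the filter on low values and were among the 11178 genes tested. Cbs, which starts the conversion of homocysteine to cysteine, did not pass and lay between 2.74 and 3.29 on the log2 scale in all arrays.

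Expression was measured on 8 Affymetrix mouse arrays, 2 for each of 4 kinds of helper T cell. The Tfh arrays held CD4 T cells positive for CXCR5, sorted from spleen on day 7 after C57BL/6 mice were immunized with KLH (keyhole limpet haemocyanin) and restimulated in vitro with an antibody to CD3 for 4 hours. The age of these mice is not stated. The Th1, Th2 and Th17 arrays held naive CD4 T cells from spleen and lymph node of OT-II mice, which carry a transgenic T cell receptor on the C57BL/6 background and were 6 to 8 weeks old. These cells were activated for 5 days with OT-II peptide and antigen-presenting cells (APC) in RPMI-1640 medium with 10% FBS and 1% L-Glu, so the cultured types shared receptor, peptide and medium. Th1 cultures received IL-12 at 10 ng/ml and an antibody to IL-4, Th2 cultures IL-4 at 10 ng/ml and an antibody to IFNg, and Th17 cultures IL-6 at 20 ng/ml, TGFb and antibodies to IL-4 and IFNg. The source of the cells, the receptor, the stimulus and its length therefore changed together with the cell type. Nothing in the labels says whether 2 arrays of a group came from separate mice or cultures, so a p-value measures the spread between these samples, which may be technical.

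The amino acid response is the branch of the integrated stress response that cells use when an amino acid runs short. Uncharged tRNA activates the kinase GCN2, which phosphorylates the initiation factor eIF2. General translation then slows while the mRNA of the transcription factor ATF4 is translated more. ATF4 pairs with C/EBP proteins at composite DNA elements, called C/EBP-ATF response elements (CARE), and induces amino acid synthesis enzymes, transporters and the synthetases that load amino acids onto tRNA. In T cells the same genes are drawn on during growth after activation, when serine feeds the folate cycle for nucleotide synthesis.

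The RefSeq promoter sequences of the members are shown first because many members are known targets of ATF4, and the core of the element by which it acts can be read in some of them. Of the 39 genes, 31 had a window from 250 bases before to 50 bases after the start in the RefSeq table for GRCm38.p6. The letters TGATGNAA, the core of the element, were searched on both strands. They stood in 10 of the 31 windows (32.3%), against 4.51% of the 27025 genes in the table and 3.97% of its 32851 windows. These 10 members were Trib3, Chac1, Asns, Got1, Nupr1, Aars, Gars, Iars, Tars and Yars. The E-box CACGTG, which other factors bind, stood in 6 member windows (19.4%) against 8.09% of all genes, and no E-box overlapped a core. A match says only that these letters are there.

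Windows around the core are given 5′ to 3′ on the strand of the gene, with the core in capitals, for Asns, Trib3 and Aars, the members with a core on the list of genes whose values are given in every array.
Asns, asparagine synthetase (chr6:7693180-7693282, minus strand): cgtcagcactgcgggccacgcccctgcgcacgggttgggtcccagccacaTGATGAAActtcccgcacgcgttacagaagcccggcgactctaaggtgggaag
Trib3, a pseudokinase induced by ATF4 (chr2:152344031-152344096, minus strand): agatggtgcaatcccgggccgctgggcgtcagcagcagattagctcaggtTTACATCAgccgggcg
Aars, alanyl-tRNA synthetase (chr8:111033680-111033871, plus strand): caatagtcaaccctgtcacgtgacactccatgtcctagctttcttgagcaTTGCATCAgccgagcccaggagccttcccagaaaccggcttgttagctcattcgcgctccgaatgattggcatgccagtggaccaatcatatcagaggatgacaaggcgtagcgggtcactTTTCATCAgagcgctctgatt

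Counted from the annotated start, the core of Asns began at -23, that of Trib3 at 14, and those of Aars at -112 and 9. In Trib3 and Aars the core read on the opposite strand. The other 7 members with a core are shown in windows of 32 bases, chosen because they hold it, so that the letters on either side can be compared.
Chac1 (chr2:119351037-119351068, plus strand): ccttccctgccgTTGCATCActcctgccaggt
Got1 (chr19:43524688-43524719, minus strand): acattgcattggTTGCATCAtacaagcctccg
Nupr1 (chr7:126625561-126625592, minus strand): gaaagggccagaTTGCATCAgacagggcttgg
Gars (chr6:55037959-55037990, plus strand): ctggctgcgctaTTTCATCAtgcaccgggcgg
Iars (chr13:49682125-49682156, plus strand): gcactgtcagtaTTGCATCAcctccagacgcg
Tars (chr15:11399654-11399685, minus strand): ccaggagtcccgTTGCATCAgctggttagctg
Yars (chr4:129189894-129189925, plus strand): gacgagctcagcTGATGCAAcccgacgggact

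The labels of the cells were checked against their markers. The CD4 T cell markers Cd3d, Cd3e, Cd3g, Cd4, Cd28 and Cd5 had a median level of 13.3 and 13.2 in the Tfh arrays and 10.8 to 12.1 in the cultured arrays. Cxcr5, the receptor used in the sort, stood at 11.25 and 11.20 in Tfh against 3.34 to 8.12 in culture. Il17a stood at 14.35 and 13.93 in Th17 against at most 10.98 elsewhere, Ifng at 15.39 and 15.07 in Th1 against at most 14.12 elsewhere, and Il4 at 15.20 and 15.57 in Th2 against at most 10.60 elsewhere. Of the lineage transcription factors, Bcl6, the Tfh factor, stood at 11.99 and 11.91 in Tfh against 6.33 to 8.62 in culture. Tbx21 and Gata3 did not part their type from Tfh. Tbx21, the Th1 factor, read 10.89 and 9.43 in Th1 against 10.66 and 10.59 in Tfh. Gata3, the Th2 factor, read 10.44 and 11.13 in Th2 against 10.67 and 10.52 in Tfh, and 4.95 to 7.74 in Th1 and Th17. The deposited values were spread differently in the Tfh arrays, whose 65th percentiles were 6.91 and 6.98 against 5.23 to 5.31 in culture. The median tested gene accordingly lay 0.84 log2 units above the cultured mean in Tfh, 0.45 above it after the arrays were shifted to the same median, and below it (-0.17) after quantile normalization.

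The members were high and low together among the cultured arrays, and the order of the arrays followed their replicate number. In the array labelled replicate 1, compared with the array labelled replicate 2 of the same type, 34 of the 38 members read higher in Th1, 38 in Th2 and 38 in Th17. In all 3 types at once 34 members (89.5%) read higher in replicate 1, against 18% of the tested genes, and 0 read lower in all 3, against 14.5%. The median difference was 1.11 log2 units in Th1, 0.68 in Th2 and 1.18 in Th17, against -0.025, 0.014 and 0.016 over all tested genes. Between the Tfh arrays the members differed by a median of 0.06 and by at most 0.32. The labels do not say whether same-numbered cultures were made together, and a group holds only 1 array of each number, so these differences are given without a test.

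**Figure D1:**
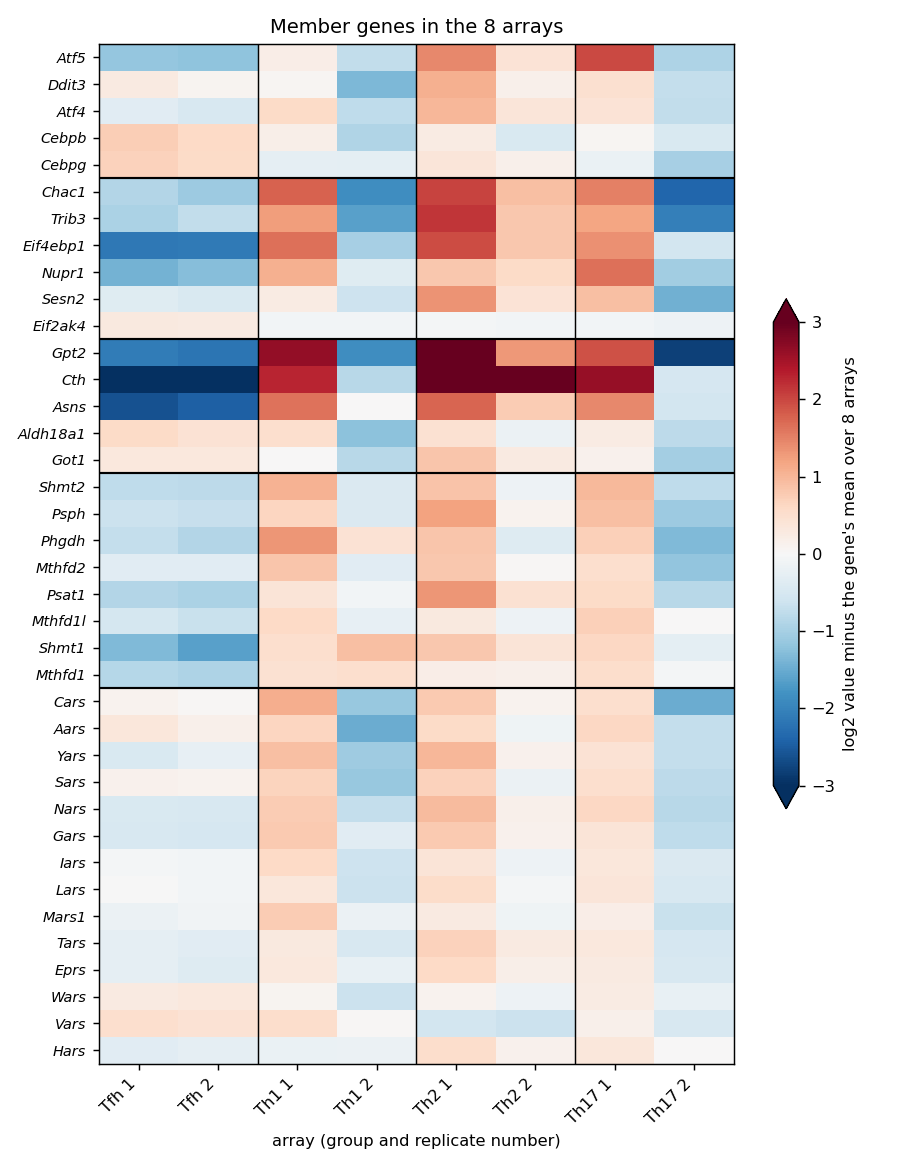
Each row is 1 of the 38 tested members and each column 1 array, labelled by group and replicate number; the colour is the log2 value minus the gene's mean over the 8 arrays. Black lines part the roles, from the top transcription factors, feedback and stress effectors, asparagine, cysteine, proline and transaminase enzymes, serine and one-carbon enzymes, and tRNA synthetases. The columns Th1 1, Th2 1 and Th17 1 are mostly red, with 35, 36 and 36 members above their own mean, and Th1 2 and Th17 2 mostly blue, with 5 and 1.

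The replicate number of the highest and of the lowest array was the same for nearly all members. The highest of the 6 cultured arrays was numbered 1 for 37 of 38 members, with Shmt1 the exception, and the lowest was numbered 2 for 37, with Hars the exception. Th2 replicate 1 was the highest for 23 members, Th1 replicate 1 for 9 and Th17 replicate 1 for 5, and Th17 replicate 2 was the lowest for 23 and Th1 replicate 2 for 13. Taken as the median distance of the members from their own means, the arrays numbered 1 stood at 0.59, 0.81 and 0.50 in Th1, Th2 and Th17, and those numbered 2 at -0.62, 0.14 and -0.73. The Tfh arrays stood at -0.36 and -0.43, below Th2 replicate 2 and above Th1 replicate 2 and Th17 replicate 2. The median gene of the whole array moved little among the cultured arrays on this measure, between -0.24 and -0.18. The members spanned a median of 1.82 log2 units over the 6 cultured arrays against 0.80 for all tested genes, 0.53 over the 3 arrays numbered 1, against 0.47, and 1.17 over the 3 numbered 2, against 0.49.

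**Figure D2:**
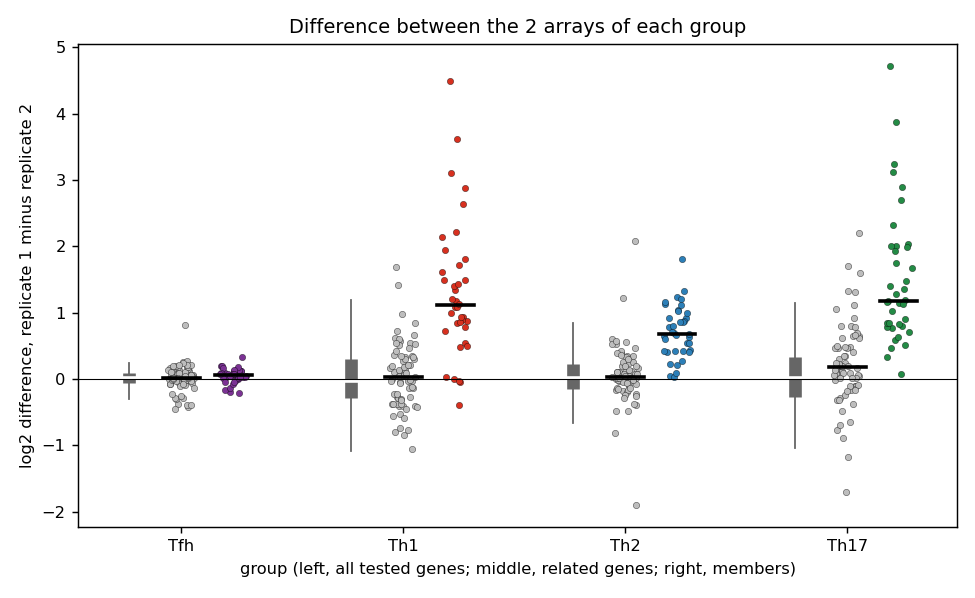
The vertical axis is the log2 difference between replicate 1 and replicate 2 of each group. For each group the bar on the left gives all 11178 tested genes (thin line, 5th to 95th percentile; thick line, quartiles; white mark, median), grey points the genes of related pathways, coloured points the 38 members, and black lines their medians. The members' medians of 1.11, 0.68 and 1.18 in Th1, Th2 and Th17 lie above the medians of the other sets, and the Tfh points lie near 0.

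A difference of at least 1 log2 unit in all 3 cultured types was seen for 7 members (18.4%), against 0.403% of all tested genes, and 0 members were lower by that much, against 0.17%. These 7 were Gpt2, Chac1, Cth, Trib3, Eif4ebp1, Shmt2 and Psph. Within single types, 21, 9 and 24 members were higher by at least 1 in replicate 1 of Th1, Th2 and Th17, against 6.8%, 3.98% and 6.45% of all tested genes. The widest spread belonged to Gpt2, the mitochondrial alanine transaminase, which read 8.20 and 3.70 in Th1, 8.66 and 6.86 in Th2, and 7.48 and 2.76 in Th17, replicate 1 first as in all such lists. Both Tfh arrays, at 3.47 and 3.38, were about as low as Th1 replicate 2 and Th17 replicate 2. For Gpt2, Th17 replicate 2 lay under the filter value of 3.13 and Th1 replicate 2 not far above it. The sizes of its Th1 and Th17 differences therefore rest on values near the floor. Chac1, an enzyme that degrades glutathione and is induced by ATF4, read 8.39 and 4.76 in Th1, 8.64 and 7.51 in Th2, and 8.12 and 4.24 in Th17, with Tfh between at 5.73 and 5.53. Gpt2 and Chac1 are given in full because their average differences were seen to be the largest.

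The same difference was present at other probe sets of these genes. The tested members had 45 further probe sets, and 42 of them read higher in replicate 1 than in replicate 2 on average over the cultured types. Gpt2 had 4 probe sets, with average differences of 3.67, 3.24, 2.00 and 1.91. For Asns 2 probe sets differed by 1.53 and 1.46, and for Phgdh 4 probe sets by 1.38, 1.31, 1.35 and 1.30. The 10 members whose windows hold the core had a median average difference of 1.36, and the 20 tested members with a window but no core 1.09.

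Markers of the antigen-presenting cells present in the cultures moved with the array number in Th2 and Th17 but not in Th1. The median of 10 myeloid and dendritic cell genes was 8.37 and 5.71 in Th2 and 6.85 and 4.28 in Th17, but 2.64 and 3.98 in Th1, and 6.99 and 6.98 in Tfh. Their log2 values summed to 81.3 and 51.8 in Th2, 67.1 and 47.5 in Th17, 27.7 and 39.6 in Th1, and 62.4 and 62.7 in Tfh. Such a sum of log2 values is not an amount of RNA. In Th1 the members were thus higher in the array with the lower myeloid sum, and the part of such cells in the Th2 and Th17 differences was not tested. The median of 9 B cell genes was lower in replicate 1 of Th1 (3.42 against 4.53) and Th2 (4.49 against 7.11) and higher in that of Th17 (5.87 against 3.84). In Tfh the B cell median was 6.25 and 6.26. Of the B cell genes Cd79a, Cd79b, Ms4a1 and Fcer2a stood at 7.90 to 8.61 in Tfh replicate 1 and Cd79b and Blnk at 8.95 and 8.42 in Th2 replicate 2, whereas Pax5 and Vpreb3 stayed under 3.13 in all arrays. In Th2 replicate 1 and Th17 replicate 1 the platelet genes Pf4 (11.84 and 8.97) and Ppbp (9.95 and 6.93) were also high. In bulk samples such as these, fewer cells of a type and less RNA per cell cannot be told apart.

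Among the transcription factors, the average difference between replicates 1 and 2 of the cultured types was largest for Atf5 (1.63) and smallest for Cebpg (0.35). It was 1.17 for Ddit3, 1.05 for Atf4 and 0.77 for Cebpb. Atf4 itself stood at 11.70 and 11.56 in Tfh, 12.61 and 11.27 in Th1, 13.02 and 12.39 in Th2, and 12.46 and 11.29 in Th17. Each cultured array numbered 1 lay above both Tfh arrays, whereas Th1 replicate 2 and Th17 replicate 2 lay below them. Atf5, a relative of ATF4 that is also translated more under stress, was lower in Tfh at 4.88 and 4.84 than in any cultured array, at 6.24 and 5.31 in Th1, 7.49 and 6.44 in Th2, and 8.02 and 5.12 in Th17. Ddit3, which encodes the stress factor CHOP, read 8.97 and 8.78 in Tfh, 8.76 and 7.36 in Th1, 9.78 and 8.86 in Th2, and 9.19 and 8.00 in Th17. Tfh lay inside the cultured range for Ddit3.

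The C/EBP genes had the reverse order between Tfh and culture. Cebpb read 10.60 and 10.48 in Tfh, 10.05 and 8.96 in Th1, 10.12 and 9.42 in Th2, and 9.93 and 9.41 in Th17. Cebpg, the common partner of ATF4, read 10.14 and 10.02 in Tfh, 9.17 and 9.14 in Th1, 9.80 and 9.58 in Th2, and 9.23 and 8.43 in Th17. Both were above all 6 cultured arrays in Tfh. In Tfh against the 3 cultured types none of the 5 factors was called, against 43.7% of all tested genes called higher and 6.66% lower. The log2 differences were -0.55 (SE 0.46) for Atf4, -1.57 (SE 0.79) for Atf5 and 0.22 (SE 0.51) for Ddit3. They were 0.89 (SE 0.35, limma adjusted p = 0.0586) for Cebpb and 0.85 (SE 0.22, adjusted p = 0.0144) for Cebpg, which missed the fold minimum. The median tested gene lay 0.84 higher in Tfh, so Cebpb and Cebpg exceeded it by 0.05 and 0.01, and after quantile normalization their differences were -0.115 and -0.245 and that of Ddit3 -1.09. The 3 probe sets of Cebpg did not match in size, with differences of 0.85, 0.14 and 2.80.

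**Figure D3:**
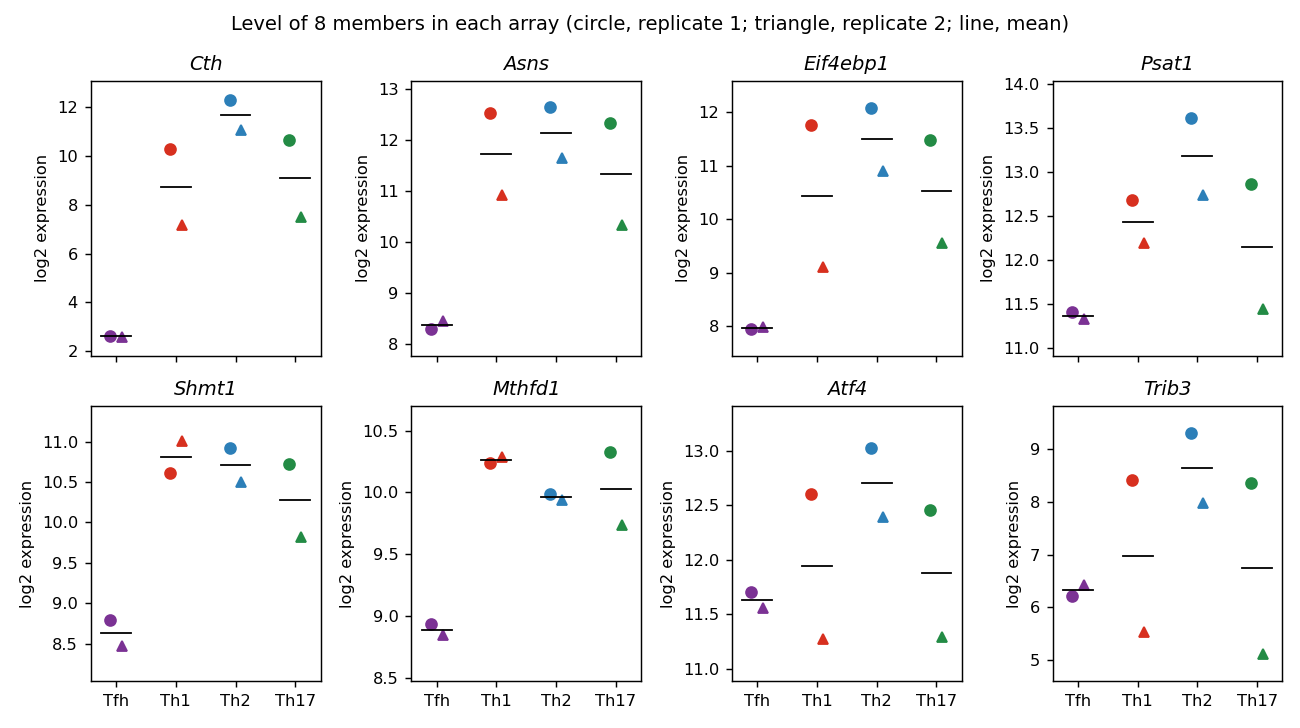
Each panel gives the log2 expression of 1 member in the 8 arrays, with circles for replicate 1, triangles for replicate 2 and lines for the mean of a group; the vertical axes differ between panels and do not start at 0. Both Tfh points lie below all 6 cultured points for Cth, Asns, Eif4ebp1, Psat1, Shmt1 and Mthfd1, and inside the cultured range for Atf4 and Trib3. Of all tested genes 13.8% lie below all 6 cultured arrays in Tfh.

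The comparison of Tfh with the mean of the 3 cultured types asks how far these pathways differ between the sorted cells and the cultures. A gene was called when its adjusted p in limma was under 0.05 and its difference at least 1 log2 unit. Lower in Tfh were 6 of the 38 members (15.8%), against 6.66% of all tested genes. They were Cth, Asns, Eif4ebp1, Shmt1, Psat1 and Mthfd1. None was called higher (0 of 38), against 43.7% of all genes, and 12 members had an unadjusted p under 0.05, as did 73.9% of all tested genes. The members' median difference was -0.50 against 0.84 for all tested genes, and -1.25 against -0.17 after quantile normalization. All 6 calls held in the 3 scalings (as deposited, shifted medians, quantile normalized), against 6.63% of all genes lower and 15.6% higher. Since the other scalings lower Tfh relative to culture, holding in them is a weak check of a lower call.

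Cth, the enzyme that releases cysteine from cystathionine, had the largest difference. Its values were 2.63 and 2.60 in Tfh, 10.30 and 7.19 in Th1, 12.27 and 11.04 in Th2, and 10.63 and 7.51 in Th17. The Tfh values lay under the filter value of 3.13, and all 6 cultured arrays lay far above it. The difference was -7.21 (SE 1.10, adjusted p = 0.00176), a fitted value and no bound, since the Tfh values are under the filter. With 3.13 in their place Tfh was at least 6.69 log2 units below the cultured mean. Cth has a single probe set on the array. Its partner Cbs was low in every group.

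Asparagine synthetase (Asns), the classical target of the amino acid response, read 8.29 and 8.45 in Tfh, 12.52 and 10.91 in Th1, 12.64 and 11.65 in Th2, and 12.33 and 10.33 in Th17. The groups did not overlap, and the difference was -3.37 (SE 0.67, adjusted p = 0.00510), or -4.20 with the median gene at 0. Its second probe set gave -3.78. Gpt2 had a difference of -2.85 but an SE of 1.63 (adjusted p = 0.163), and Th17 replicate 2 lay below both Tfh arrays. The cytosolic aspartate transaminase Got1 and the proline synthesis enzyme Aldh18a1 did not pass the test, with differences of 0.41 (SE 0.37) and 0.67 (SE 0.51), or -0.35 and -0.17 after quantile normalization.

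Of the feedback and stress effectors, Eif4ebp1 was called lower in Tfh. It encodes 4E-BP1, which blocks the cap-binding factor eIF4E and is induced by ATF4. Its values were 7.95 and 7.99 in Tfh, 11.76 and 9.11 in Th1, 12.07 and 10.91 in Th2, and 11.49 and 9.55 in Th17, a difference of -2.84 (SE 0.84, adjusted p = 0.0239). Leaving out a Tfh array ended the call for Eif4ebp1 (adjusted p = 0.113 without replicate 1 and 0.110 without replicate 2), as did leaving out Th2 replicate 1 (0.0514), or taking the mean of its 3 probe sets (-1.38, adjusted p = 0.0792). One of those probe sets had a mean of 2.86 over the 8 arrays and a difference of 0.55, the other -1.85.

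Trib3, which binds ATF4 and limits its action, read 6.22 and 6.42 in Tfh, 8.41 and 5.53 in Th1, 9.31 and 7.98 in Th2, and 8.36 and 5.12 in Th17. Tfh lay above Th1 replicate 2 and Th17 replicate 2 and below the other cultured arrays, and the difference of -1.13 (SE 1.10) did not pass the test. Nor did those of Chac1 (-1.31, SE 1.31) and of Sesn2, a leucine sensor that restrains mTORC1 (-0.55, SE 0.65). Nupr1, a small stress-induced chromatin protein, was below all 6 cultured arrays in Tfh, at 4.50 and 4.63 against 4.87 to 7.56, but its difference of -1.80 (SE 0.75, adjusted p = 0.0727) did not pass the test either. Eif2ak4, which encodes the kinase GCN2 itself, varied least, with 7.40 and 7.39 in Tfh and 6.95 to 7.06 over the cultured arrays. Its difference of 0.38 (SE 0.14, adjusted p = 0.0495) was under the fold minimum, and quantile normalization turned it to -1.21. A second probe set of Eif2ak4 was 3.40 higher in Tfh, at 6.23 and 6.22 against 2.57 to 3.30 in culture, so the 2 probe sets did not match in size.

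The serine and one-carbon enzymes were all lower on average in Tfh, and 3 of 8 were called lower, against 6.66% of all tested genes. The first step of serine synthesis is made by Phgdh, which read 11.63 and 11.47 in Tfh, 13.66 and 12.76 in Th1, 13.16 and 11.95 in Th2, and 13.06 and 11.03 in Th17. Only Th17 replicate 2 lay below Tfh, and the difference of -1.05 (SE 0.61, adjusted p = 0.170) did not pass the test. Psat1, the second step, read 11.41 and 11.33 in Tfh, 12.68 and 12.20 in Th1, 13.61 and 12.74 in Th2, and 12.86 and 11.45 in Th17. Tfh was below all 6 cultured arrays, and the difference was -1.22 (SE 0.42, adjusted p = 0.0408). The call for Psat1 ended without any 1 of 6 arrays, with a difference of -0.98 without Th17 replicate 1 and adjusted p of 0.146 and 0.167 without Tfh replicates 1 and 2, 0.0803 and 0.0558 without Th1 replicates 1 and 2, and 0.0734 without Th2 replicate 1.

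Psph, the last step, read 10.41 and 10.36 in Tfh, 11.71 and 10.63 in Th1, 12.28 and 11.16 in Th2, and 11.97 and 9.96 in Th17. Again Th17 replicate 2 alone lay below Tfh, and the difference was -0.90 (SE 0.61, adjusted p = 0.233). Serine enters the folate cycle through the hydroxymethyltransferases. The mitochondrial form Shmt2 read 10.85 and 10.82 in Tfh, 12.65 and 11.16 in Th1, 12.47 and 11.45 in Th2, and 12.58 and 10.84 in Th17, a difference of -1.02 (SE 0.61, adjusted p = 0.178). The cytosolic form Shmt1 read 8.79 and 8.47 in Tfh, 10.61 and 11.01 in Th1, 10.92 and 10.50 in Th2, and 10.73 and 9.82 in Th17, a difference of -1.97 (SE 0.28, adjusted p = 0.00134). In Th1 the 2 forms went opposite ways between the arrays, by 1.49 for Shmt2 and -0.40 for Shmt1.

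For the next enzymes of the cycle, only the mitochondrial Mthfd2 differed clearly between the Th1 arrays. The cytosolic Mthfd1 read 8.93 and 8.85 in Tfh, 10.24 and 10.29 in Th1, 9.98 and 9.94 in Th2, and 10.32 and 9.73 in Th17, a difference of -1.19 (SE 0.17, adjusted p = 0.00123). The mitochondrial Mthfd2 read 11.13 and 11.12 in Tfh, 12.30 and 11.13 in Th1, 12.28 and 11.50 in Th2, and 11.97 and 10.29 in Th17, a difference of -0.45 (SE 0.53). Mthfd1 varied little between the arrays of Th1 and Th2 (-0.05 and 0.05), whereas Mthfd2 differed by 1.17 and 0.78. Further probe sets of Mthfd1 went both ways in Th1, at 9.93 and 9.66 for 1 and 9.97 and 10.37 for another. In Th17 the cytosolic forms were also higher in replicate 1, Shmt1 by 0.91 and Mthfd1 by 0.59. The mitochondrial Shmt2, Mthfd2 and Mthfd1l differed there by 1.75, 1.68 and 0.70. Mthfd1l, also mitochondrial, gave -0.80 (SE 0.30, adjusted p = 0.0519). Shmt1 and Mthfd1 had further probe sets that were all lower in Tfh, by -3.06 to -0.58 for Shmt1 and by -1.59 and -0.96 for Mthfd1.

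**Figure D4:**
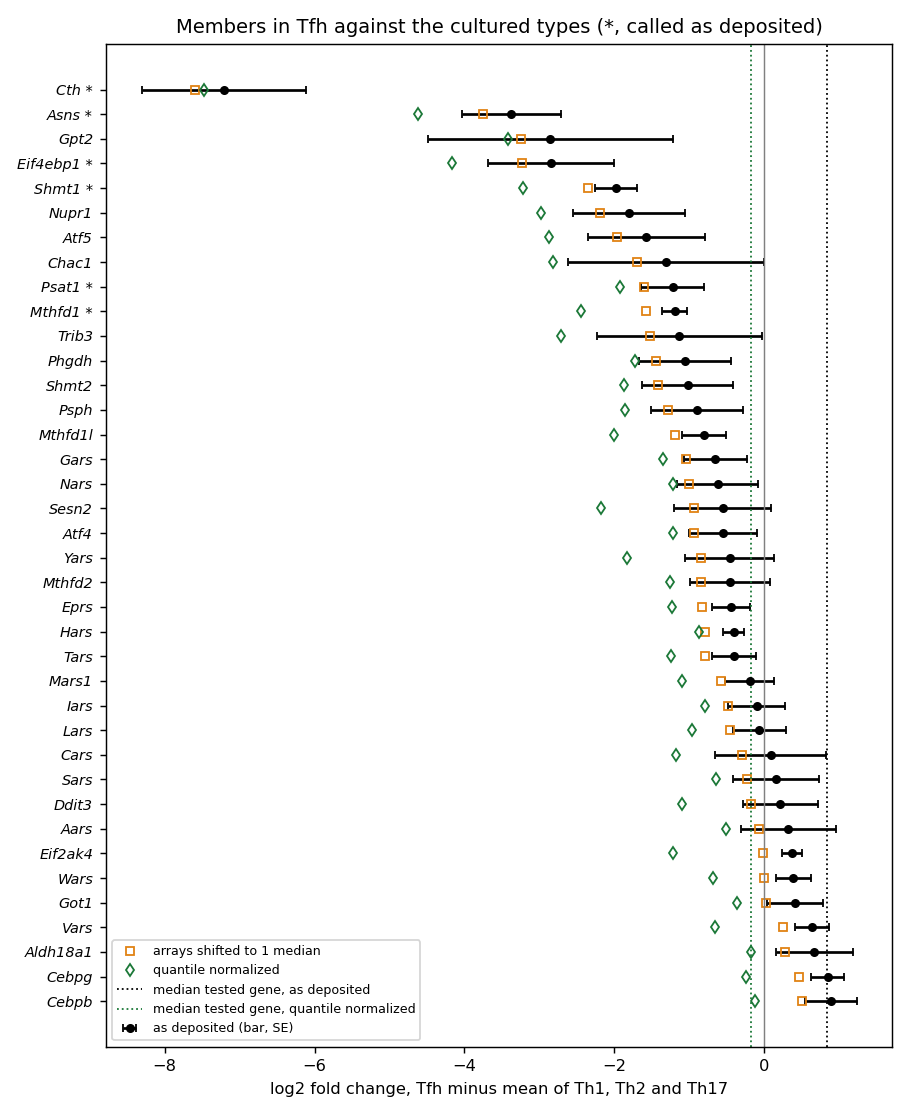
Points give the log2 difference between Tfh and the mean of the cultured types for each of the 38 tested members, as deposited (black, with bars of 1 SE), after shifting the arrays to the same median (squares) and after quantile normalization (diamonds); dotted lines mark the median tested gene at 0.84 and -0.17. Asterisks mark the 6 members called as deposited, from Cth at a fitted -7.21 to Mthfd1 at -1.19, and the 11 members above 0 as deposited lie below 0 after quantile normalization.

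None of the 14 tRNA synthetases was called in Tfh against culture as a whole (0 higher and 0 lower). Of all tested genes 43.7% were called higher and 6.66% lower. The differences of the synthetases ran from -0.65 for Gars to 0.64 for Vars. The enzyme that loads alanine, Aars, read 11.20 and 11.02 in Tfh, 11.52 and 9.38 in Th1, 11.44 and 10.73 in Th2, and 11.50 and 10.15 in Th17 (difference 0.33, SE 0.64, and -0.505 after quantile normalization). Tfh lay between the cultured arrays numbered 1 and those numbered 2. Wars, the tryptophan enzyme, which interferon also induces, read 10.10 and 10.14 in Tfh, 9.90 and 9.18 in Th1, 9.93 and 9.67 in Th2, and 10.07 and 9.60 in Th17. Tfh was above all 6 cultured arrays for Wars, as it was for 60.5% of all tested genes. The difference was 0.39 (SE 0.23, adjusted p = 0.174), and -0.68 after quantile normalization.

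The synthetases as a set differed by a median of 1.06, 0.57 and 0.85 between replicates 1 and 2 of Th1, Th2 and Th17. The average difference was 1.63 for Cars, 1.32 for Yars, 1.31 for Sars and 1.25 for Nars. It was 0.98 for Gars, 0.84 for Iars, 0.81 for Lars, 0.73 for Mars1, 0.68 for Tars and 0.58 for Eprs. It was least for Vars (0.41) and Hars (0.24), and Hars lay 0.02 lower in replicate 1 of Th1 (-0.02). For the other roles the medians in Th1, Th2 and Th17 were 1.09, 0.70 and 1.17 for the transcription factors and 2.04, 1.02 and 2.51 for the feedback and stress effectors. They were 1.73, 0.99 and 2.01 for the asparagine, cysteine, proline and transaminase enzymes, and 0.87, 0.83 and 1.54 for the serine and one-carbon enzymes. In every role the difference was smallest in Th2.

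Against single cultured types, which share the Tfh arrays, the same members were at issue. Against Th1 4 members were called lower (10.5%, against 6.16% of all genes) and 0 higher (against 42.8%). Against Th2 6 were lower (15.8%, against 6.89%) and 1 was higher (against 42.8%), and against Th17 4 were lower (10.5%, against 6.17%) and 1 was higher (against 41.8%). Asns, Cth, Shmt1 and Mthfd1 were lower against all 3 types (4 of 38, 10.5%, against 3.91% of all genes), and 0 were higher against all 3 (against 35.4%). Cth was lower in Tfh by at least 5.61, 8.53 and 5.94 against Th1, Th2 and Th17 with 3.13 in place of its Tfh values (fitted differences -6.13, -9.04 and -6.46). The differences in the same order were, for Asns, -3.35, -3.78 and -2.97, for Shmt1 -2.18, -2.08 and -1.64, and for Mthfd1 -1.37, -1.07 and -1.14. Psat1 (-1.80, adjusted p = 0.0232) and Eif4ebp1 (-3.52, adjusted p = 0.0252) were lower against Th2 as well. The higher calls were Vars against Th2 (1.08, adjusted p = 0.0151) and Cebpg against Th17 (1.25, adjusted p = 0.00847), and both ended under the other 2 scalings, with -0.25 and 0.14 after quantile normalization. Against Th1 the count of lower calls was 7 without either Th17 replicate. Against Th17 it was 2 without Tfh replicate 2 or Th17 replicate 1 and 8 without Th17 replicate 2, and against all 3 types also 2 without Tfh replicate 2 or Th17 replicate 1.

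The difference between the arrays numbered 1 and 2 carries over to the comparison with Tfh. The split by number was made after that difference had been seen, so that more lower calls against the arrays numbered 1 restate it. With the 3 cultured arrays numbered 1 as the group 21 members were called lower and 0 higher, against 6.44% and 42.2% of all tested genes. With the 3 arrays numbered 2, 5 were lower and 2 higher, against 5.19% and 42.4%. The members' median difference was -1.09 in the first and 0.06 in the second, whereas that of all genes was 0.83 and 0.85. Asns (-4.13 and -2.60), Cth (fitted values -8.45 and -5.96), Shmt1 (-2.12 and -1.81), Mthfd1 (-1.29 and -1.09) and Eif4ebp1 (-3.80 and -1.89) were lower in both. Called only against the arrays numbered 1 were 16 members, among them Gpt2 (-4.69), Chac1 (-2.75), Nupr1 (-2.53), Atf5 (-2.39), Trib3 (-2.37) and Atf4 (-1.07). Cebpb (1.28) and Aldh18a1 (1.24) were called higher against the arrays numbered 2.

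**Figure D5:**
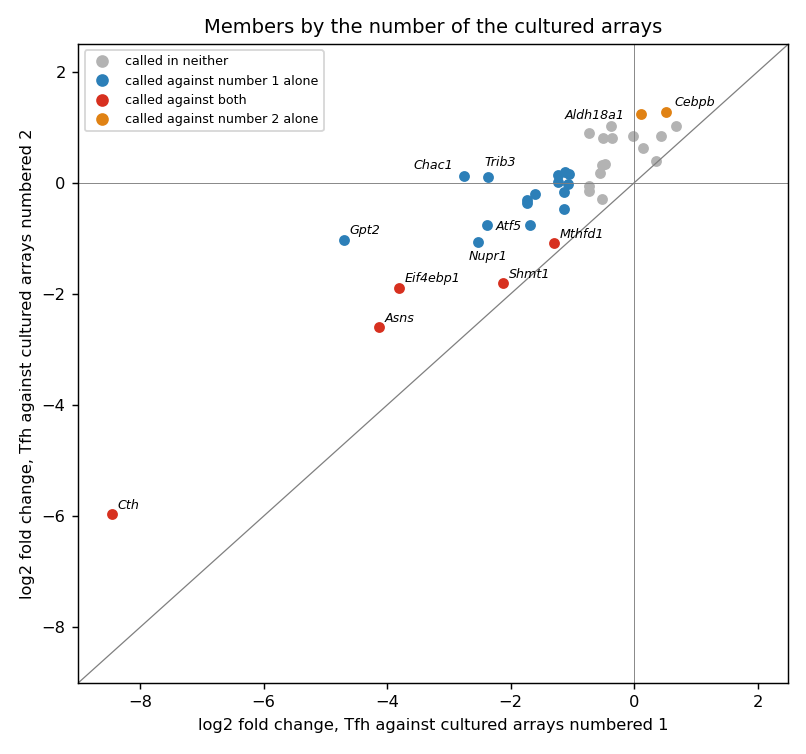
Each point is 1 tested member, with its log2 difference between Tfh and the 3 cultured arrays numbered 1 on the horizontal axis and between Tfh and the 3 numbered 2 on the vertical axis; the diagonal marks equal differences. All 38 points lie above the diagonal, which restates that each member was higher on average in the arrays numbered 1. The 5 red points were called against both sets, the blue points against the arrays numbered 1 and the 2 orange points against those numbered 2.

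Between the cultured types, which were made alike apart from the cytokines and antibodies, 0 members were called in any pair. Of all tested genes 0.349% were called higher and 0.895% lower in Th1 than in Th2, 0.0626% and 0.0805% in Th1 than in Th17, and 0.483% and 0.188% in Th2 than in Th17. The smallest adjusted p among the members was 0.214 (Th1 and Th2), 0.596 (Th1 and Th17) and 0.252 (Th2 and Th17) in limma, and 2, 0 and 1 members had an unadjusted p under 0.05, against 15.7%, 9.72% and 13.5% of all tested genes. By value, 32 of 38 members were lower in Th1 than in Th2 and 34 were higher in Th2 than in Th17, with median differences of -0.50 and 0.54, against 0.02 and -0.01 for all genes. Between Th1 and Th17 the median was 0.07. These medians were smaller than those between the 2 arrays of Th1 (1.11) or of Th17 (1.18).

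Genes of related pathways, from lists drawn up by function, had medians nearer 0 between the arrays. The other cytosolic synthetases and their scaffold (8 tested) differed by medians of 0.11, 0.09 and 0.29 between replicates 1 and 2 of Th1, Th2 and Th17, the mitochondrial synthetases (16 tested) by -0.15, -0.02 and -0.0008, and the folate cycle enzymes (9 tested) by -0.37, 0.11 and 0.06. The eIF2 kinases, phosphatases and feedback genes (17 tested) gave 0.10, 0.008 and 0.47, the methionine, cysteine and glutathione enzymes (8 tested) 0.06, 0.15 and 0.34, and the other amino acid enzymes (12 tested) 0.19, 0.09 and 0.29. These medians compare with 1.11, 0.68 and 1.18 for the members. In the order given, 4, 3, 1, 8, 2 and 5 genes of these lists were higher in replicate 1 of all 3 types. Lower in all 3 were 0, 4, 1, 4, 0 and 1, against 18% higher and 14.5% lower among all tested genes. Single related genes had large differences, among them Aldh1l2 (0.85, 2.08 and 1.33), Ddit4 (1.69, 0.42 and 2.20) and Bcat2 (1.42, 0.58 and 1.60), picked after the values were seen.

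In Tfh against culture, 10 of the 17 eIF2 pathway genes were called higher and 2 lower, and 4 and 2 held in all 3 scalings. These and the following counts are to be read against the 43.7% of all tested genes called higher and 6.66% lower, and the 15.6% and 6.63% that held. The higher ones included the sestrin genes Sesn3 (3.28) and Sesn1 (2.26), the kinase PKR (Eif2ak2, 3.05) and Eif4ebp2 (2.35), a relative of Eif4ebp1 that moved the other way. Eif2b3 (-2.18) and Eif2b1 (-1.08), subunits of the exchange factor of eIF2, were lower. Of the folate enzymes 2 were higher, Gldc (1.82, and 0.90 after quantile normalization) and Mtr (1.10, and -0.39), and 2 lower, the mitochondrial Aldh1l2 (-2.22) and Mthfd2l (-1.82). Of the methionine, cysteine and glutathione enzymes 4 were higher and 1 lower. In glutathione synthesis the subunits of the first ligase, Gclc (2.77) and Gclm (2.43), were higher and the second enzyme, Gss (-1.43), lower. Also higher were the cysteine catabolism gene Mpst (2.87) and Mat2b (1.66, and 0.86 after quantile normalization), a subunit of methionine adenosyltransferase. Among the other amino acid enzymes Aldh4a1 (3.48), Asl (1.66, and 0.41 after quantile normalization) and Ass1 (1.50, and 0.099) were higher and Bcat1 (-2.21) and Prodh (-1.35) lower. Of 16 mitochondrial synthetases 5 were higher, led by Aars2 (2.28) and Vars2 (2.03), none of which held in all scalings, and Mars2 (-2.03) was lower. Neither direction was called for the 8 other cytosolic synthetases, with a median of -0.58. Some genes of these lists passed the filter of 3.13 only through Tfh or only through culture. Their differences are fitted values, and their calls depend on the filter. Aldh4a1 read 2.46 to 2.70 in culture. In Tfh Prodh read 2.33 and 2.32, Aldh1l2 2.69 and 2.65, and Mars2 3.03 and 2.99. Mpst (2.18 to 3.13) and Gldc (2.73 to 3.51) were mostly under the filter value in culture.

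Transcripts of other cell types moved with the Tfh comparison. All 7 granulocyte genes were higher in Tfh. Their median level was 11.5 and 11.4 there, 4.68 in Th2 replicate 1 and 2.27 to 2.31 in the other cultured arrays. Their log2 values summed to 81.7 and 81.2 in Tfh against 16.6 to 40.7 in culture. Camp (2.21 to 2.24 in culture) and Ltf (2.32 to 2.53) passed the filter of 3.13 only through the Tfh arrays, so their calls depend on it. Of 7 tested B cell genes 4 were called higher in Tfh, among them Fcer2a (3.65) and Cd79a (2.54), and of 10 myeloid genes Lyz2 (4.71) was higher and Mrc1 (-2.31) and Itgax (-1.84) lower. Of 5 tested CD8 and NK cell genes Cd8a (1.11, and -0.11 after quantile normalization) was higher and Klrk1 (-4.97) lower. Klrk1 read 2.63 and 2.60 in Tfh, 11.67 and 9.18 in Th1, 6.29 and 2.80 in Th2, and 6.77 and 8.74 in Th17. The Tfh values of Klrk1, Mrc1 (2.89 and 2.86) and Itgax (2.493 and 2.485) were under the filter value, so their differences are fitted values. The 2.60 to 2.63 at which Cth stood in Tfh is a value of the whole mixture, and the part of other cells in the Tfh differences was not tested.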

How the data were processed

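The deposited log2 values, made by the authors with GCRMA (background correction from probe sequence, normalization and summary of probe sets), per the submitters' processing notes, were used as deposited. Which arrays were normalized together is not given in the sources used here. Of 45101 probe sets, 34945 carried 1 symbol, 932 several and 9160 none, and 64 were controls. A gene was tested when at least 2 arrays exceeded 3.13, the 50th percentile of the deposited values. Differences were fitted with limma 3.58.1 (R 4.3.3), 1 coefficient per group over 8 arrays, with moderation trended on level (4 residual and 1.78 prior degrees of freedom) and Benjamini-Hochberg adjustment over 11178 genes, two-sided. SE is that of this fit.

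The members, roles, related lists and markers were chosen with earlier results of these data known. Values in every array are given for called members and for Atf4, Atf5, Ddit3, Cebpb, Cebpg, Trib3, Asns, Cth, Phgdh, Psat1, Psph, Shmt2, Mthfd2, Aars and Wars, and at most 4 called genes each way for each list. Some listed markers were not analysed here. Alternatives were other scalings, filters, probe set rules, variance models, thresholds and sets of arrays. The number of arrays limits the precision. On simulated data with independent noise, in which few of the 11178 genes changed, both thresholds together recovered 22.6% of changes of 1 log2 unit and 78.8% of changes of 2 between Tfh and the cultured mean. Between Th1 and Th2 they recovered 13.5% and 69.6%. For changes of 1 the adjusted p alone recovered 36.9% and 21.8%. In the real Tfh comparison many more genes were called, so these shares do not measure its sensitivity. Figures used matplotlib 3.10.9 (Python 3.11.15).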

Additional observations from a re-analysis of the deposited data

How the results depend on the processing

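With only 2 arrays a group, a member that was not called may still differ. Against the cultured mean the 6 members lower in Tfh became 19 after quantile normalization and 21 against the cultured arrays numbered 1, and ranged from 4 to 9 when 1 array was left out. Quantile normalization also moved the median tested gene from 0.84 to -0.17 against the cultured mean. The shares of all tested genes called lower under it are not given here. Its counts of lower members, here and below, are therefore not read as particular to the members. No member called against the cultured mean changed direction under any alternative run. All 11 members above 0 as deposited, none of them called, turned below 0 after quantile normalization, among them Cebpb, Cebpg, Ddit3, Aars and Wars. Of those named, Ddit3 and Aars did so also with shifted medians, against the cultured arrays numbered 1 and without Th1 replicate 2, and Ddit3 with the mean of its probe sets. Trib3 (0.11), Mthfd2 (0.15), Chac1 (0.12), Sesn2 (0.14), Iars, Lars, Mars1, Nars and Yars, below 0 as deposited, lay above 0 against the arrays numbered 2. After quantile normalization 14, 19 and 12 members were lower against Th1, Th2 and Th17 and 11 against all 3, in place of 4, 6, 4 and 4, and 0 were higher against Th2 and against Th17, as also with shifted medians. With the mean of all probe sets 2 members were higher against the mean of the cultured types, 2 against each of Th1, Th2 and Th17, and 1 against all 3. With the most variable probe set these counts were 2, 2, 3, 2 and 2, and 7 were lower against Th1. With no fold minimum 3 members were higher against the mean of the cultured types and 1 against Th1. With the fold minimum kept, 2 were higher against the cultured arrays numbered 2. With only the arrays of the groups compared, 14 were lower against Th2, and with the Tfh arrays averaged 0 were higher against Th2. Without single arrays, 0 to 1 members were higher against the cultured mean, 0 to 2 against Th1, 0 to 1 against Th2 and 0 to 2 against Th17. Lower calls ranged from 3 to 7 against Th1, 4 to 8 against Th2, 2 to 8 against Th17 and 2 to 6 against all 3. Between the cultured types 0 members were called under every alternative run, except 1 between Th2 and Th17 without Th17 replicate 1.

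The labels share the replicate numbers but do not say what a number stands for. Across the 11178 genes the replicate 1 minus replicate 2 differences correlated at 0.004 between Th1 and Th2, 0.255 between Th1 and Th17 and 0.268 between Th2 and Th17, and at most at 0.042 with Tfh. With a replicate block 9 members were lower against the mean of the cultured types, 7 lower and 1 higher against Th1, and 10 lower against Th2.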

Other observations

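Outside the members, 38 other tested genes were at least 1 log2 unit higher in replicate 1 than in replicate 2 of all 3 cultured types. They were looked up after the pattern of the members had been seen. The genes named here were picked from the list after it was seen, and no theme was tested. Slc7a11, the cystine transporter subunit, differed by 2.80, 2.04 and 3.29 in Th1, Th2 and Th17. The glycine transporter gene Slc6a9 differed by 2.79, 1.76 and 3.16, the mitochondrial phosphoenolpyruvate carboxykinase gene Pck2 by 2.31, 1.80 and 2.61, the lipoprotein receptor gene Vldlr by 3.95, 1.03 and 2.21, and the mitochondrial protease gene Lonp1 by 1.13, 1.07 and 1.26. The promoter windows of Slc7a11, Pck2, Vldlr, Emilin2, Mctp2 and Ifitm3 hold the letters TGATGNAA, and those of Slc6a9 and Lonp1 do not. Of the tested genes that are not members, 6 of 252 with these letters in the window showed the pattern (2.38%), and 26 of 8844 without them (0.294%). The median average difference of these genes was near 0 with the letters (0.00562) and without them (0.000817). Among the members with a window, 2 of 10 with the letters showed the pattern (20%) and 3 of 20 without them (15%). A link between the letters and the pattern was not tested.

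The list also held immune effector genes. Ifitm1, an interferon-induced membrane protein, differed by 3.35, 4.25 and 4.35, perforin (Prf1) by 2.73, 4.07 and 4.28, and granzyme C (Gzmc) by 1.26, 4.01 and 2.85. In the other direction 19 genes were at least 1 log2 unit lower in replicate 1 of all 3 types. They included the interferon-gamma-induced GTPase genes Iigp1 (-3.29, -1.91 and -6.86), Irgm1 (-1.62, -1.35 and -3.40) and Ifi47 (-1.22, -1.19 and -3.18). They also included Fos (-1.16, -1.16 and -2.77) and Nr4a3 (-1.45, -1.73 and -2.73), which T cell receptor signals induce. The labels name nothing that differs between the cultures numbered 1 and 2.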
